A study of Mus musculus with 8 samples.

Results

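The genes described here are the 3 mammalian TGF-β ligands (Tgfb1, Tgfb2 and Tgfb3), the 3 receptor genes Tgfbr1, Tgfbr2 and Tgfbr3, and the 4 latent TGF-β binding protein genes Ltbp1 to Ltbp4. They were chosen by gene symbol and make up 10 of the 53801 genes in the count table, and all 10 had reads and received an adjusted p-value. RNA had been sequenced from stromal cells sorted from MO5 melanomas, subcutaneous tumors formed by B16 melanoma cells that carry ovalbumin. The sort kept cells that were CD45-, CD31-, PDPN+ and PDGFRα+, and divided them by a GFP reporter into ADAM12+ cells (GFP+, n = 4 libraries) and ADAM12- cells (GFP-, n = 4 libraries). All mice were ADAM12-GFP animals on a C57BL/6 background, aged 8 to 12 weeks at implantation, and cells were taken at day 8 of tumor growth. The reporter is a bacterial artificial chromosome transgene in which Adam12 regulatory sequence drives GFP, so the groups differ in reporter fluorescence and share the transgene. The study's general statement is that sample numbers refer to mice, and the labels number the replicates without saying whether GFP+ and GFP- libraries of the same number came from the same mouse.

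TGF-β ligands are secreted in a latent form, in which the mature dimer stays wrapped in its own propeptide. LTBP1, LTBP3 and LTBP4 bind that propeptide and anchor the complex to the extracellular matrix, whereas LTBP2 is a matrix protein of the same family that does not bind latent TGF-β. Once released, the ligand binds TGFBR2, which recruits and phosphorylates TGFBR1, and TGFBR1 then phosphorylates SMAD2 and SMAD3. TGFBR3, or betaglycan, has no kinase. At the membrane it presents ligand, TGF-β2 in particular, to TGFBR2, and its shed form binds ligand in the extracellular space.

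Library totals ran from 883144 reads in GFP- replicate 3 to 31666734 reads in GFP+ replicate 4. GFP- replicate 3 was the shallowest library by a wide margin, with a size factor of 0.0910, the factor by which its counts were divided to make them comparable with the others (normalised read counts). Adam12, the gene that the reporter follows, gave 1362 ± 357 normalised counts (SD, n = 4) in the GFP- group and 2302 ± 484 (SD, n = 4) in the GFP+ group, with no overlap between groups (log2 fold change 0.75, DESeq2 adjusted p = 0.0266, edgeR adjusted p = 0.0643). The Adam12 call was lost without GFP- replicate 3 or 4 or GFP+ replicate 2 or 4 (DESeq2 adjusted p = 0.0689, 0.0852, 0.0767 and 0.117). The summed normalised counts of 7 fibroblast markers ran from 151460 to 293610 in GFP- and from 319430 to 375500 in GFP+ libraries, and 5 of the 7 were higher in GFP+ cells. The summed counts of 8 melanocyte genes, which the tumor cells express, ran from 24084 to 70809 in GFP- and from 4505 to 11208 in GFP+ libraries, and all 8 were lower in GFP+ cells. Leukocyte markers summed to between 811 and 5560 in GFP- and between 782 and 4419 in GFP+ libraries, with 0 of 11 tested called by DESeq2 or by edgeR, and 0 at an unadjusted DESeq2 p under 0.05. Schwann cell markers summed to between 511 and 1150.5 in GFP- and between 214 and 369 in GFP+ libraries, and of 3 tested, 2 were called lower by DESeq2 and 0 by edgeR. Pericyte markers summed to between 509.5 and 945 and between 680.4 and 1384, and of 6 tested, DESeq2 called Abcc9 higher and Mcam lower, both named after their values were seen, whereas edgeR called 0 higher and 1, Mcam, lower. Of endothelial and keratinocyte markers, 0 of 5 and 0 of 1 tested were called by either tool, and at an unadjusted DESeq2 p under 0.05 there were 1 higher and 1 lower endothelial markers. None of these markers was at 0 in every library. The part of other cells in the differences below was not tested, and in bulk RNA fewer cells of a type and less RNA per cell cannot be told apart.

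The question was which components of TGF-β production, storage and reception differed between ADAM12+ and ADAM12- stromal cells. These names follow the reporter, since every GFP- library also held Adam12 reads. Tgfbr3, Ltbp3 and Ltbp4 were higher in GFP+ cells, whereas the 3 ligands and both signaling receptors did not pass the test. At an adjusted p under 0.05 in the DESeq2 Wald test, 3 of the 10 genes were called higher and 0 lower, and at an unadjusted p under 0.05 Ltbp1 was added to the genes higher and 0 were lower. Among all 15283 tested genes, 4.66% were called higher and 4.76% lower. The edgeR quasi-likelihood test called the same 3 genes higher and 0 lower, against backgrounds of 2.83% higher and 2.28% lower. For the same 3 genes, all GFP+ libraries lay above all GFP- libraries, a pattern found in 6.37% of tested genes, and for 0 of the 10 did they lie below, against 5.95%. The median log2 fold change of the 10 genes was 0.19, compared with -0.01 over all tested genes.

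**Figure D1:**
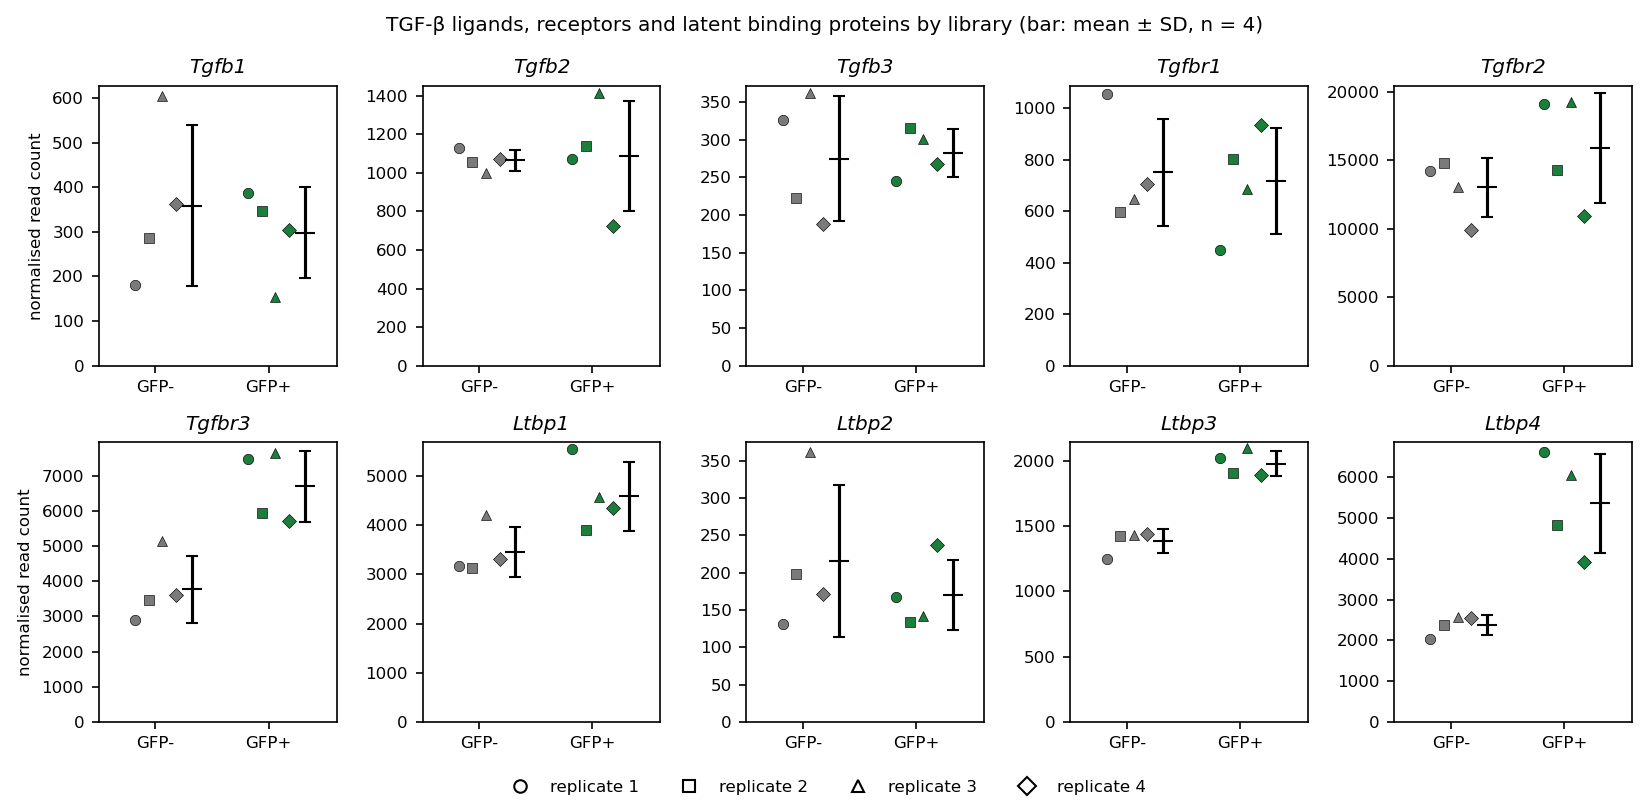
Normalised read counts (vertical axis, linear and starting at 0) of the 10 genes in each of the 4 GFP- (grey) and 4 GFP+ (green) libraries, with symbols for the replicate numbers and bars for the mean ± SD (n = 4). GFP+ and GFP- libraries separate for Tgfbr3, Ltbp3 and Ltbp4 and overlap for the other 7 genes.

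Tgfb2 was the ligand with the most reads in all 8 libraries. Its normalised counts were 1127, 1058, 999.8 and 1074 in GFP- replicates 1 to 4 and 1072, 1138, 1417 and 725 in GFP+ replicates 1 to 4. The GFP+ libraries included both the highest and the lowest value, and the GFP- values lay between them. The means were 1065 ± 52.5 (SD, n = 4) and 1088 ± 284 (SD, n = 4), a log2 fold change of 0.03 (95% CI -0.41 to 0.46, DESeq2 adjusted p = 0.974).

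Tgfb1, the ligand best known from platelets and immune cells, was counted at 180, 286, 604 and 362 in GFP- and at 387, 346, 154 and 305 in GFP+ replicates 1 to 4. The groups overlapped, and the highest and lowest libraries were GFP- replicate 3 and GFP+ replicate 3. The highest of these values rested on 55 reads, which allow 455 to 787 normalised counts (exact Poisson 95% interval, counting error only). GFP- replicate 3 also had the highest sum of leukocyte markers (5560) and GFP+ replicate 3 the lowest (782), but GFP+ replicate 2, with a sum of 4419, was not high in Tgfb1. The part of leukocyte RNA in Tgfb1 was not tested. The log2 fold change of Tgfb1 was -0.23 (95% CI -0.998 to 0.55, DESeq2 adjusted p = 0.826).

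Tgfb3 gave 326, 223, 363 and 188 normalised counts in GFP- and 246, 316, 300.4 and 268 in GFP+ replicates 1 to 4. The GFP+ values lay within the range of the GFP- values. The means were 275 ± 82.9 (SD, n = 4) and 283 ± 31.5 (SD, n = 4), and the difference was 0.10 on the log2 scale (95% CI -0.43 to 0.62, DESeq2 adjusted p = 0.905). On GRCm38, Tgfb3 lies at chr12:86056745-86079041 on the minus strand and overlaps Ttll5 on the opposite strand, and reads had been counted by strand. The interval of Tgfb2 was the narrowest of the 3 ligands, and differences within it could not be detected with these libraries.

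Tgfbr2, which binds ligand first, was the most highly expressed of the 10 genes. Its normalised counts were 14223, 14829, 13075 and 9931 in GFP- and 19137, 14260, 19235 and 10961 in GFP+ replicates 1 to 4. GFP+ replicates 1 and 3 were above every GFP- library, and GFP+ replicates 2 and 4 were within their range. The means of 13015 ± 2181 (SD, n = 4) and 15898 ± 4028 (SD, n = 4) differed by 0.29 on the log2 scale (95% CI -0.15 to 0.73), which did not pass the test (DESeq2 adjusted p = 0.510).

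Tgfbr1, the kinase that phosphorylates SMAD2 and SMAD3, was much less abundant. It gave 1057, 597, 648 and 705 normalised counts in GFP- and 449.9, 804, 688 and 934 in GFP+ replicates 1 to 4. The highest and the lowest library were replicate 1 of each group, and the groups overlapped. The log2 fold change was -0.07 (95% CI -0.62 to 0.48, DESeq2 adjusted p = 0.941).

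Tgfbr3 was the receptor gene that rose. Normalised counts were 2909, 3463, 5131 and 3601 in GFP- replicates 1 to 4. In GFP+ replicates 1 to 4 they were 7486, 5928, 7643 and 5716.5. Each GFP+ library lay above each GFP- library, although the gap between 5131 in GFP- replicate 3 and 5716.5 in GFP+ replicate 4 was small, and the former rested on 467 reads (exact Poisson 95% interval 4676 to 5618). The means were 3776 ± 952 (SD, n = 4) and 6693.5 ± 1012 (SD, n = 4), a 1.78-fold difference (log2 fold change 0.83, 95% CI 0.43 to 1.24). This passed in DESeq2 (adjusted p = 0.00175), edgeR (adjusted p = 0.0199) and limma voom (adjusted p = 0.00174). The study itself singled out Tgfbr3 from these samples, so its difference here is not independent evidence. The gene (chr5:107106570-107289629, minus strand, GRCm38) contains 3 small loci of unproven transcripts on its own strand, and their reads could have been lost from its count.

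**Figure D2:**
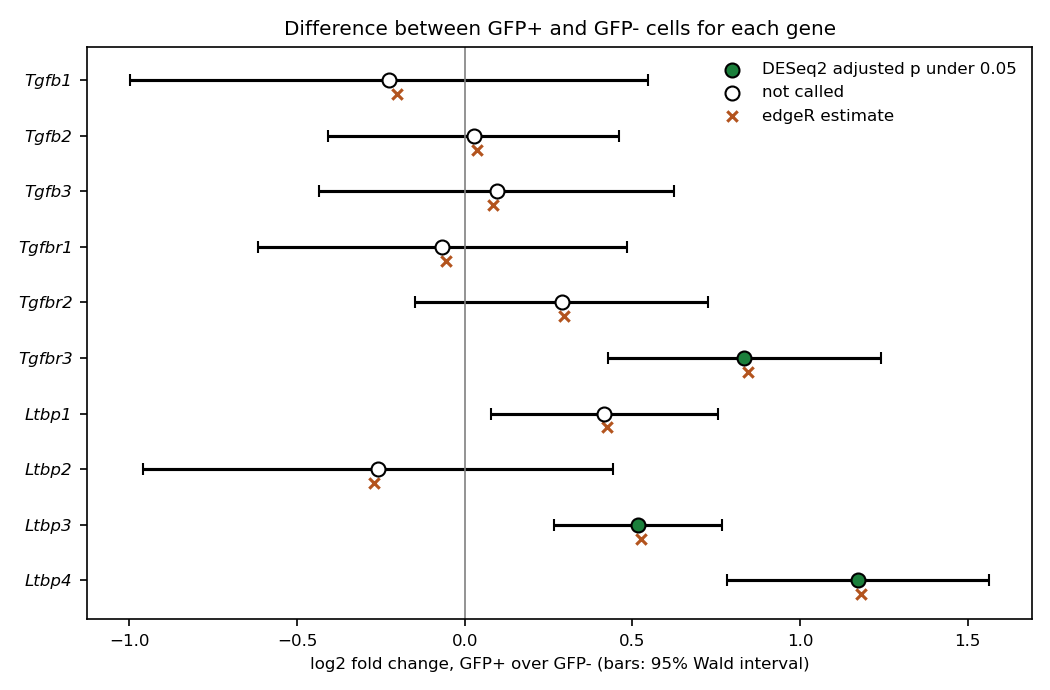
Log2 fold change of GFP+ over GFP- (horizontal axis) for each gene from DESeq2 (circles, filled where the adjusted p was under 0.05) with 95% Wald intervals, and from edgeR (crosses). The intervals of Tgfbr3, Ltbp1, Ltbp3 and Ltbp4 lie above 0, and of these Ltbp1 did not pass after adjustment over all genes.

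The latent binding proteins gave 2 of the 3 calls. Ltbp4, which is needed for elastic fiber assembly as well as for TGF-β storage, had the largest fold change of the 10 genes. Its normalised counts were 2034, 2371, 2571 and 2547.5 in GFP- and 6629, 4837, 6055 and 3923 in GFP+ replicates 1 to 4. The lowest GFP+ library, replicate 4, was above the highest GFP- library, and the 4 GFP- libraries lay close together. The means were 2381 ± 248 (SD, n = 4) and 5361 ± 1216 (SD, n = 4), which gave a log2 fold change of 1.17 (SE 0.20, 95% CI 0.78 to 1.56). The adjusted p was 4.07e-07 in DESeq2, 0.00219 in edgeR and 0.00110 in limma voom. Ltbp4 lies at chr7:27305136-27337692 on the minus strand of GRCm38 and overlaps no other annotated gene.

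Ltbp3, best known for its role in the skeleton, rose by less but with little scatter. Normalised counts were 1249.5, 1423, 1428 and 1437 in GFP- and 2016, 1904.5, 2098 and 1890.2 in GFP+ replicates 1 to 4. The groups were well apart, and in each of them the SD was under 100 counts. The means of 1385 ± 90.2 (SD, n = 4) and 1977 ± 98.3 (SD, n = 4) corresponded to a 1.43-fold difference (log2 fold change 0.52, 95% CI 0.26 to 0.77). The adjusted p was 0.00166 in DESeq2, 0.0424 in edgeR and 0.0259 in limma voom. Ltbp3 lies at chr19:5740904-5758532 on the plus strand of GRCm38.

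The sequences around the starts of these 2 genes are shown because they are the latent binding protein genes that were called. They are RefSeq windows of GRCm38.p6 with 250 bases before and 30 after the start, read 5′ to 3′ on the strand of the gene. The window of Ltbp3 is chr19:5740650-5740929 (plus strand), that of the upstream start of Ltbp4 is chr7:27337583-27337862 (minus strand) and that of a downstream start is chr7:27333619-27333898 (minus strand). Capitals mark matches on either strand to an AP-1 motif (TGANTCA), a SMAD motif (CAGACA) or a GC box (GGGCGG).
Ltbp3 start: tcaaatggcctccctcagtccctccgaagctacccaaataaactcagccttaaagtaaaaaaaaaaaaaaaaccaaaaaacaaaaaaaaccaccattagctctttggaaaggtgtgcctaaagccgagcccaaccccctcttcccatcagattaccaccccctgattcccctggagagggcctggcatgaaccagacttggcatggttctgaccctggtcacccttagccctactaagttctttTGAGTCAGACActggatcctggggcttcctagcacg
Ltbp4 upstream start: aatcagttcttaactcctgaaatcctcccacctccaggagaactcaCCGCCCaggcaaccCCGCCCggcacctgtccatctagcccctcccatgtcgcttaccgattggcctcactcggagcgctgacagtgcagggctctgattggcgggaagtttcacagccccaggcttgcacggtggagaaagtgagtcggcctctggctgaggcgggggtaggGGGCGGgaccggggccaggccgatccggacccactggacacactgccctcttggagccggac
Ltbp4 downstream start: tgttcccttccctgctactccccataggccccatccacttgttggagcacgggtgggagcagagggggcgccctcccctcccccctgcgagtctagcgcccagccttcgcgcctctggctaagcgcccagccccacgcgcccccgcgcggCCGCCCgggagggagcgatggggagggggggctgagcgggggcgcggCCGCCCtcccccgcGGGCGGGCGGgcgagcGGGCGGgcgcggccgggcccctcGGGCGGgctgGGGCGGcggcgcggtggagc

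The Ltbp3 window held 1 AP-1 match and 1 SMAD motif match at its start, which overlap by the letters CA, and no GC box. The AP-1 letters occurred in 7.47% and the SMAD letters in 19.6% of the 32817 RefSeq windows of the same length. The Ltbp4 windows printed held 3 and 7 GC box matches and none to the AP-1 or SMAD letters, and a GC box occurred in 34.7% of windows. A further Ltbp4 window, chr7:27333634-27333913, overlaps the downstream one and held 8 GC boxes. GC content was 48.6% for Ltbp3 and 64.3% and 80.4% for Ltbp4, against a median of 52.5%. Both genes were higher in GFP+ cells, but their windows shared none of these motifs. Of the other genes, the Tgfb1 window (chr7:25686752-25687031) held 6 GC boxes, and a window of Ltbp1 (chr17:75005279-75005558) held the CRE letters TGACGTCA, found in 1.74% of windows. The SMAD letters also occurred in windows of genes that were not called, with 1 match in Tgfb2, 1 in a window of Tgfbr1 and 2 in a second window of Ltbp1. Windows were matched for 8 of the 10 genes, Tgfbr3 and Tgfb3 not among them. A match describes letters only and says nothing of binding.

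Ltbp1 was the latent binding protein gene with the most reads in GFP- cells. Its normalised counts were 3169, 3135, 4208 and 3315.5 in GFP- and 5553, 3895, 4564 and 4346 in GFP+ replicates 1 to 4. The groups overlapped by a single library, GFP- replicate 3, which exceeded GFP+ replicate 2. The log2 fold change was 0.42 (95% CI 0.08 to 0.75), which did not pass after adjustment (DESeq2 adjusted p = 0.116, edgeR adjusted p = 0.160). Without GFP- replicate 3, whose value rested on 383 reads, Ltbp1 was called (log2 fold change 0.51, DESeq2 adjusted p = 0.0206). A processed pseudogene lies inside Ltbp1 (chr17:75005568-75392512, GRCm38) on the same strand, and reads from it could not be told apart here.

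Ltbp2, the family member without latent TGF-β binding, was the least abundant of the 10 genes. Its normalised counts were 132, 198, 363 and 171 in GFP- and 168, 134, 142 and 238 in GFP+ replicates 1 to 4. The groups overlapped over most of their range, and the highest value, in GFP- replicate 3, came from 33 reads (exact Poisson 95% interval 249.6 to 509). The log2 fold change was -0.26 (95% CI -0.96 to 0.44, DESeq2 adjusted p = 0.761).

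These differences depend on what the libraries are scaled to. After seeing the data, the counts were also scaled to 5 fibroblast markers (Col1a1, Col1a2, Dcn, Lum and Thy1), 3 of which were themselves called higher in GFP+ cells, and this moved the median log2 fold change of all tested genes to -0.85. On that scale the 3 calls were lost: Tgfbr3 was at -0.04 (DESeq2 adjusted p = 0.912), Ltbp3 at -0.34 (adjusted p = 0.246) and Ltbp4 at 0.29 (adjusted p = 0.384), and 6 other genes of the 10 were called lower. Over all genes, 94 were called higher and 6065 lower on that scale. Relative to that shifted median, Tgfbr3, Ltbp3 and Ltbp4 stood 0.81, 0.51 and 1.14 higher on the log2 scale. Subtracting the median largely undoes the scaling, so these values restate the main 0.83, 0.52 and 1.17 and add no support.

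Shares within a gene family are free of scaling between libraries. Ltbp4 took 30.9%, 33.3%, 30.0% and 34.1% of the reads of the 4 latent binding protein genes in GFP- replicates 1 to 4. In GFP+ replicates 1 to 4 it took 46.1%, 44.9%, 47.1% and 37.7%. Every GFP+ library had a larger Ltbp4 share than any GFP- library, with means of 32.1% ± 1.94 (SD, n = 4) and 43.97% ± 4.25 (SD, n = 4). The share of Ltbp1 was smaller in GFP+ libraries, 38.0% ± 2.86 (SD, n = 4) against 46.4% ± 2.60 (SD, n = 4), again without overlap (43.98% to 49.1% in GFP-, 35.5% to 41.8% in GFP+). Reads of Ltbp4 per read of Ltbp1 ran from 0.611 to 0.768 in GFP- and from 0.903 to 1.33 in GFP+ libraries. In reads not corrected for length, Ltbp4 thus passed Ltbp1 in 3 GFP+ libraries and fell short of it in GFP+ replicate 4. Per kilobase of exon, Ltbp4 was above Ltbp1 in all 8 libraries. The shares of Ltbp3 (18.7% ± 1.43 and 16.6% ± 1.85, SD, n = 4) and Ltbp2 (2.82% ± 0.991 and 1.45% ± 0.560, SD, n = 4) overlapped between groups. No test was run on shares.

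Among the receptors, Tgfbr3 took 16.0%, 18.3%, 27.2% and 25.3% of the family reads in GFP- and 27.7%, 28.2%, 27.7% and 32.5% in GFP+ replicates 1 to 4. The groups did not overlap but nearly met, at 27.2% and 27.7%, and the GFP- libraries fell into a lower and a higher pair. Relative to Tgfbr2 alone the groups did overlap, with 0.2045 to 0.392 reads of Tgfbr3 per read of Tgfbr2 in GFP- and 0.391 to 0.522 in GFP+ libraries. Tgfbr2 kept the largest share in every library (74.0% ± 5.09 in GFP- and 67.7% ± 3.79 in GFP+, SD, n = 4). Among the ligands, Tgfb2 accounted for 63.4% ± 8.44 (SD, n = 4) of the GFP- reads and for 64.4% ± 8.27 (SD, n = 4) of the GFP+ reads, and the shares of all 3 ligands overlapped between groups.

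**Figure D3:**
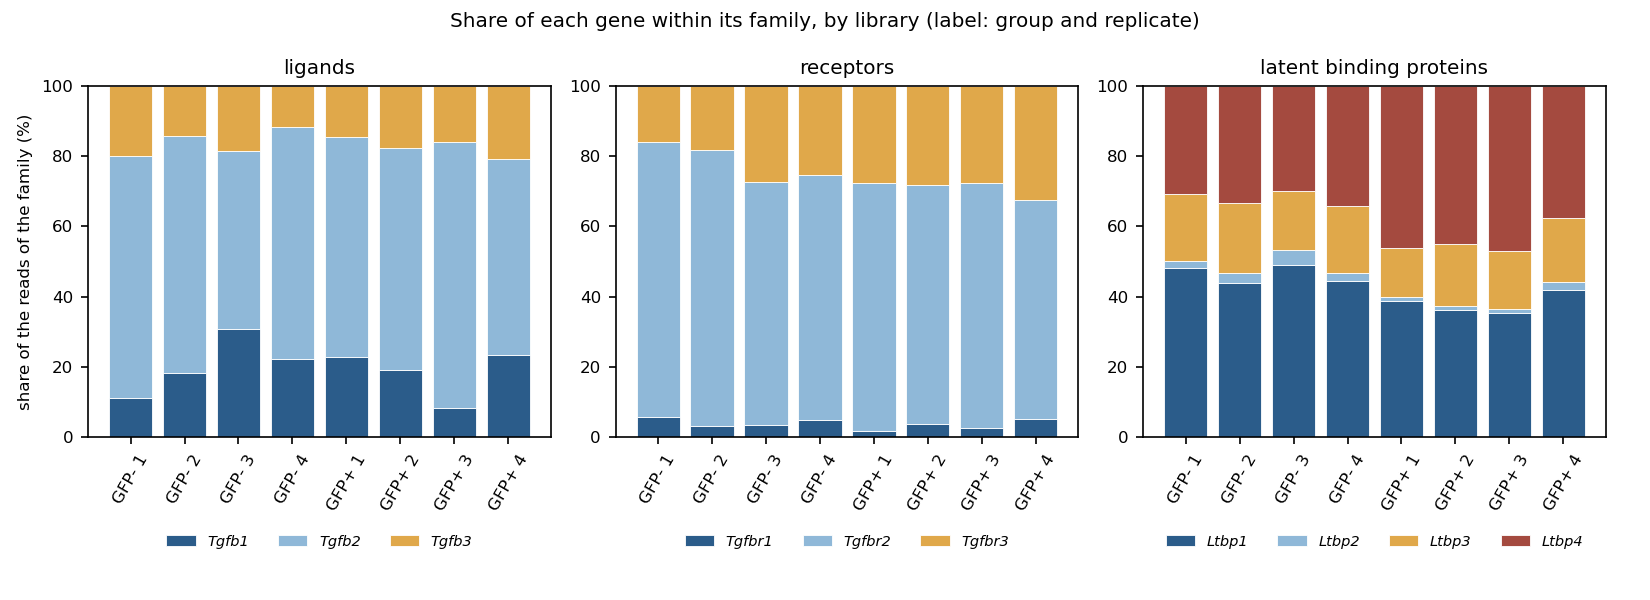
Share of each gene in the reads of its family (vertical axis, percent) in each library (horizontal axis, group and replicate number), for the ligands, receptors and latent binding proteins. The Ltbp4 segment is 30.0% to 34.1% in GFP- and 37.7% to 47.1% in GFP+ libraries, and the ligand segments show no ordering by group.

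Levels were compared between genes as RPKM, the reads of a gene scaled to its annotated exon length and to the library total. That length joined the exons of all annotated transcripts, 10691 bases for Ltbp1 and 6463 for Ltbp4. The order of Ltbp4 and Ltbp1 rests on these lengths, since Ltbp1 had more reads in every GFP- library and in GFP+ replicate 4. Tgfbr2 was highest, at 159 ± 19.7 (SD, n = 4) for GFP- cells and 172 ± 35.1 (SD, n = 4) for GFP+ cells. It was followed by Tgfbr3 (58.6 and 91.2), Ltbp4 (37.3 and 73.7) and Ltbp1 (32.7 and 38.2, group means of GFP- and GFP+ in that order). Each of these 4 genes was above the next in 8 of 8 libraries, as was Ltbp1 above Tgfb2 (18.5 and 16.8), and Tgfbr2 and Ltbp1 were separated from the gene below them by their ranges as well. The order of Tgfb2 and Ltbp3 (15.4 and 19.5) differed between the groups. In GFP- cells Tgfb2 was above Ltbp3 in 4 of 4 libraries, with ranges of 17.8 to 20.1 and 12.9 to 17.2, whereas in GFP+ cells it was above in 1 of 4. Tgfb3 (8.14 and 7.52) and Tgfb1 (7.27 and 5.30) did not differ beyond their spread, with Tgfb3 higher in 5 of 8 libraries. Tgfbr1 (11.5 and 10.01) lay below Ltbp3 in 7 of 8 and above Tgfb3 in 6 of 8 libraries. Ltbp2 was lowest in all 8 libraries (2.68 and 1.88). The message level of the ligand-binding receptor was thus many times that of the kinase partner TGFBR1 and of any ligand in every library.

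**Figure D4:**
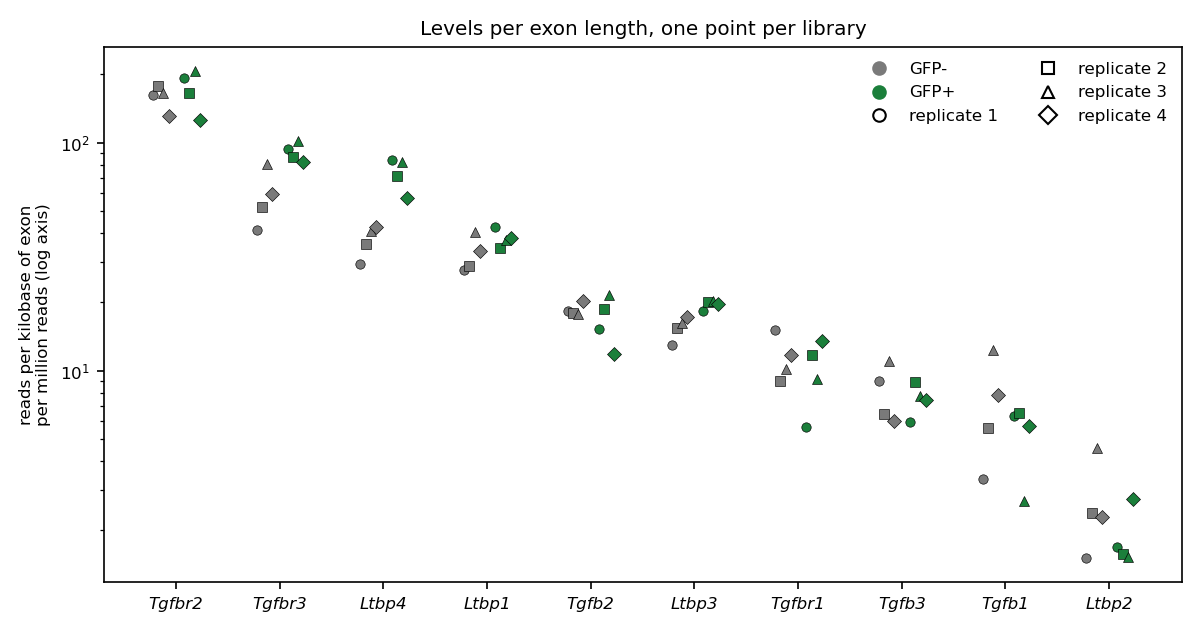
RPKM (reads scaled to exon length and library total, vertical log axis) for the 10 genes, ordered by their mean over all 8 libraries, with GFP- libraries in grey, GFP+ libraries in green and symbols for the replicate numbers. Tgfbr2 lies highest and Ltbp2 lowest, and Ltbp4 shows the widest gap between the groups.

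The other genes of the pathway were read from 6 lists. Their counts stand against 4.66% of all tested genes called higher and 4.76% called lower, and the lists with 1 call are near that background. Of 17 genes that store or activate latent TGF-β, 2 were higher, 1 was lower and 14 were not called (median log2 fold change 0.33). Thbs1, whose product thrombospondin-1 can release TGF-β from its propeptide, rose from 10450 ± 3482 to 22139 ± 3932 normalised counts (SD, n = 4, log2 fold change 1.08, DESeq2 adjusted p = 0.00199), and the groups did not overlap. Emilin1, an elastic fiber glycoprotein that restrains processing of the TGF-β precursor, rose by 0.51 on the log2 scale (DESeq2 adjusted p = 0.0136), which edgeR did not call (adjusted p = 0.0659). Mmp9, a secreted protease able to cleave latent complexes, fell by 2.47 on the log2 scale (265 ± 96.8 to 48.8 ± 53.7 normalised counts, SD, n = 4, DESeq2 adjusted p = 0.00284). GFP+ replicate 1 held 128 normalised counts of Mmp9 and the other GFP+ libraries 12.1 to 36.9, and without replicate 1 the log2 fold change was -3.53. The Emilin1 call was also lost when GFP- replicate 2 or 4 or GFP+ replicate 1 or 3 was left out (DESeq2 adjusted p = 0.0697, 0.0840, 0.0523 and 0.1005). Neither DESeq2 nor edgeR called the genes of integrin subunits and fibrillins in this list. In limma voom, 3 further genes of this list passed, Lrrc32 (adjusted p = 0.0170), whose product GARP holds latent TGF-β at the cell surface, the integrin subunit gene Itgb6 (0.0492) and the secreted protease gene Mmp2, just under the threshold, all named after their values were seen.

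Other extracellular binders of TGF-β showed the largest share of calls among the 6 lists, with 4 of the 7 tested genes higher and 0 lower (median log2 fold change 0.83). Dcn and Bgn encode decorin and biglycan, small leucine-rich proteoglycans of the matrix that bind TGF-β. Dcn rose from 21660 ± 1562 to 44117 ± 5431 normalised counts (SD, n = 4, log2 fold change 1.03, DESeq2 adjusted p = 1.68e-10), and Bgn rose by 1.23 on the log2 scale (adjusted p = 1.52e-06). Htra1, a secreted serine protease, had 3467 ± 59.9 and 6159 ± 353 normalised counts (SD, n = 4), which differed by 0.83 on the log2 scale (DESeq2 adjusted p = 2.52e-11). Cilp, a matrix protein that binds TGF-β1, rose by 0.88 on the log2 scale (DESeq2 adjusted p = 0.0169). The Cilp call was lost in limma voom (adjusted p = 0.0916) and in DESeq2 without GFP- replicate 2 (0.0635) or either of GFP+ replicates 1 and 3 (0.0639 and 0.0893). The edgeR test called 4 of these genes higher and 0 lower. Dcn is also among the fibroblast markers that were higher in GFP+ cells.

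Of 13 co-receptors and receptor regulators, 1 was higher and 12 were not called (median log2 fold change 0.01). The gene that rose was Nrp1, neuropilin-1, a membrane protein that binds semaphorins, VEGF and TGF-β (1366 ± 215 to 2620 ± 350 normalised counts, SD, n = 4, log2 fold change 0.95, DESeq2 adjusted p = 1.71e-05). Eng, which encodes endoglin, the membrane co-receptor most closely related to betaglycan, was at -0.48 on the log2 scale (DESeq2 adjusted p = 0.0862). Its adjusted p was 0.0407 in limma voom, and 0.0385 and 0.0380 in DESeq2 without GFP- replicate 3 and without GFP+ replicate 1, so Eng was called lower in those settings.

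Among 12 SMADs and SMAD regulators, 1 was higher in DESeq2 and 0 were called by edgeR (median log2 fold change 0.33). Smad6, an inhibitory SMAD, had 50.1 ± 36.0 and 137 ± 37.1 normalised counts (SD, n = 4, DESeq2 adjusted p = 0.0461, edgeR adjusted p = 0.169), and its call was lost in 12 of 16 alternative settings, among them without GFP- replicate 1 or 2 or any GFP+ library (DESeq2 adjusted p = 0.0828 to 0.185). The log2 fold changes of the signaling SMADs were 0.36 for Smad2 (DESeq2 adjusted p = 0.430), 0.16 for Smad3 (0.904) and 0.09 for Smad4 (0.842). Smad7, an inhibitory SMAD that TGF-β induces, had a log2 fold change of 0.46 (DESeq2 adjusted p = 0.510), which was 0.84 (0.0576) without GFP- replicate 3 and ran down to 0.26 without GFP- replicate 1.

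Of 25 TGF-β target genes, 7 were higher, 0 lower and 18 not called (median log2 fold change 0.60), and edgeR called 5 higher. Ctgf, which encodes a matricellular growth factor, was at 51.6, 98.9, 87.9 and 119 normalised counts in GFP- and at 283, 256, 258 and 428 in GFP+ replicates 1 to 4. Its groups were well apart (log2 fold change 1.76, DESeq2 adjusted p = 2.11e-05). The transcription factor genes Snai2 and Junb rose by 1.65 and 0.60 on the log2 scale (DESeq2 adjusted p = 0.000302 and 0.00212). The stress response gene Gadd45b rose by 0.76 (adjusted p = 0.00249), the collagen cross-linking enzyme Lox by 0.95 (0.00858) and the hyaluronan synthase Has2 by 1.11 (0.0173). The Lox call was lost without GFP+ replicate 3 (DESeq2 adjusted p = 0.0547). The other target gene called was the collagen gene Col3a1, named after its values were seen, which rose by 0.80 (DESeq2 adjusted p = 0.0343, edgeR 0.0902). Groups overlapped for Has2, which was called neither by edgeR (adjusted p = 0.0596) and limma voom (0.0639) nor by DESeq2 without GFP- replicate 4 or either of GFP+ replicates 1 and 3 (0.0695, 0.0597 and 0.108). Several of these genes (Ctgf, Gadd45b, Lox and Has2) had been named by the study from the same samples, and all of them respond to signals other than TGF-β as well.

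In the activin branch, whose receptors signal through the same SMAD2 and SMAD3, 2 of 9 tested genes were higher and 1 was lower (median log2 fold change 0.25). Fst, which encodes the activin antagonist follistatin, rose from 1235 ± 256 to 2617 ± 802 normalised counts (SD, n = 4, log2 fold change 1.08, DESeq2 adjusted p = 0.000611). Acvr2a, an activin receptor, rose by 0.88 on the log2 scale (adjusted p = 0.00816), a call that was lost without GFP+ replicate 4 (DESeq2 adjusted p = 0.0631). Inhbb, the gene of the activin βB subunit, fell by 1.67 on the log2 scale (DESeq2 adjusted p = 0.00731), its groups overlapped, and it was not called by edgeR (adjusted p = 0.0724), by limma voom (0.0685) or without GFP- replicate 4 (0.0735, DESeq2). Beyond the limma voom values given above, that tool also passed Aspn (adjusted p = 0.0184) among the binders and Tgif1 (0.0429) and Pmepa1 (0.0279) among the SMAD regulators, all named after their values were seen. Over all 6 lists, 17 genes were called higher and 2 lower by DESeq2, and 13 higher and 1 lower by edgeR. For limma voom these counts were 20 and 2. Over all genes, 712 were called higher and 727 lower by DESeq2, 405 and 327 by edgeR, and 645 and 644 by limma voom. With the libraries scaled to the fibroblast markers the split turned to 1 higher and 33 lower, Snai2 being the gene called higher.

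**Figure D5:**
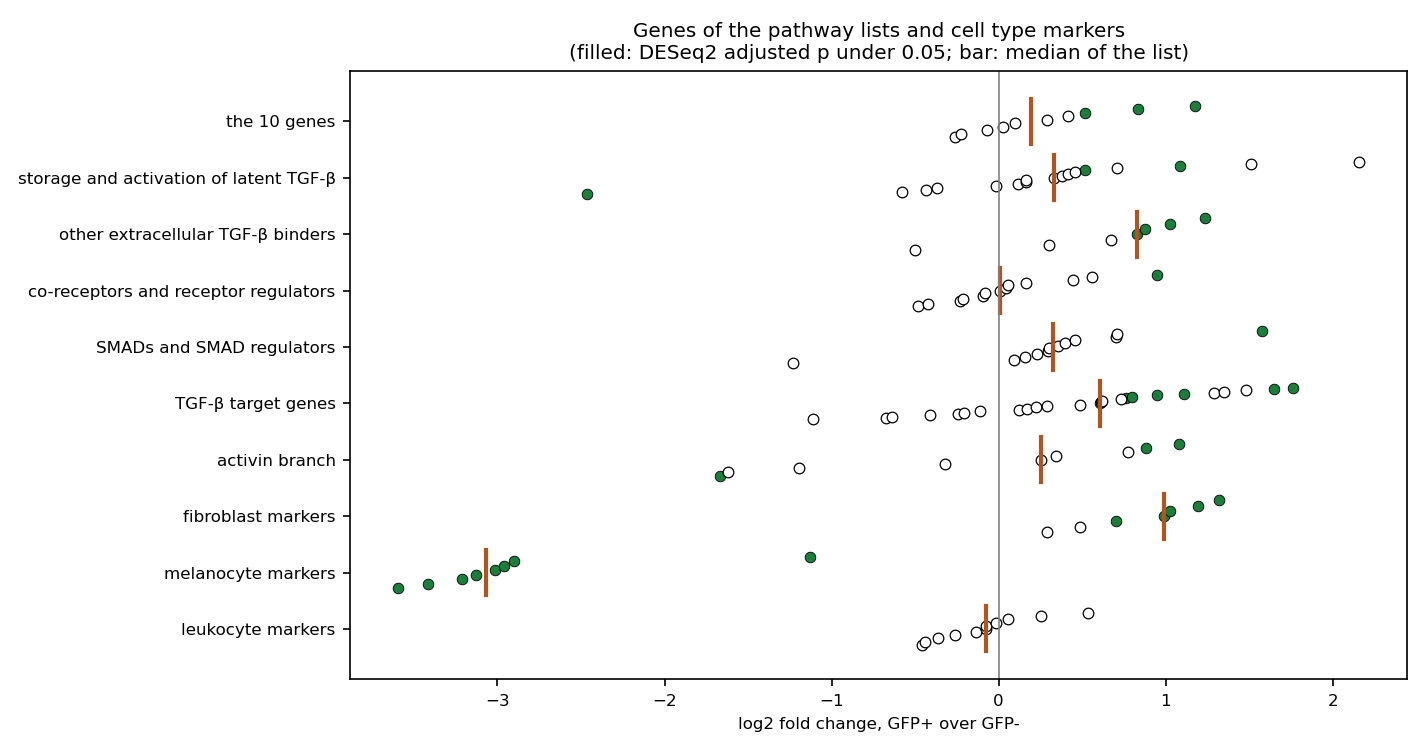
Log2 fold change of GFP+ over GFP- (horizontal axis) for the tested genes of each list (points, filled at a DESeq2 adjusted p under 0.05) with the list median (bar). Points of other extracellular TGF-β binders and of target genes lie mostly right of 0, fibroblast markers all right of 0 and melanocyte markers all left of 0.

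The genes whose pattern over the 8 libraries was most like each called gene were found from the root mean square difference in centred log2 normalised counts among 8802 candidates. For Tgfbr3 they were Zfp36l2 (0.0865), Lpar1 (0.0960) and Clmp (0.116). For Ltbp3 they were Sh3d19 (0.0822), Kif1b (0.0870) and Rab11fip2 (0.0900). For Ltbp4 they were Ifi205 (0.125), Plac8 (0.148) and Pcolce (0.150), the last of which encodes an enhancer of procollagen processing. None of these was among the 10 genes or the pathway lists. All points share the same 8 libraries, so the values describe likeness only.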

How the data were processed

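RNA-seq counts from 8 libraries, 4 GFP+ and 4 GFP-, were analysed. According to the study's methods and the submitters' processing notes, libraries were made with a stranded total RNA kit, reads were trimmed with cutadapt 3.4, mapped to GRCm38 with STAR 2.7.3a and counted by strand per Ensembl gene with featureCounts 2.0.1. The values analysed were the raw counts of reads in the table the authors deposited. The authors' normalised score in the same table, a raw count over a size factor, rounded, was used only to check the size factors computed here (largest difference 0.49991, the rounding). Its columns of group means, dispersions, fold changes and p-values from the authors' own comparison were not used.

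The 29043 genes with a read were fitted in R 4.3.3 with DESeq2 1.42.0 (group only, Wald test, two-sided, independent filtering, Benjamini-Hochberg over all genes), which left 13443 genes without an adjusted p by independent filtering and 317 without a p by the Cook's distance filter. The threshold for a call was an adjusted p of 0.05. edgeR 4.0.16 (quasi-likelihood, TMM), which tested 14323 genes, limma 3.58.1 (voom, TMM), TMM factors in DESeq2, a minimum mean of 10 raw counts, omission of independent filtering, omission of the Cook's filter, the replicate number as a block, and leaving out each library were the alternatives. The scaling to fibroblast markers was chosen after seeing the data. The code was tested on simulated data. Gene positions and exon lengths came from GENCODE M21, which holds 99.82% of the identifiers, and start windows from RefSeq (GRCm38.p6). Replicates differed by more than sampling noise (chi-square per degree of freedom 10.2 to 81.3). Library totals of 883144 to 31666734 reads set the counting error, and intervals from them cover counting error only, since reads were not collapsed to molecules.

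The 10 genes and the lists were chosen with earlier results of these data known. Named genes were the 10, up to 6 called genes per list with the smallest adjusted p, the 3 genes most like each called gene (mean normalised count of at least 100, pseudocount of 1), and Smad2, Smad3, Smad4, Smad7, Eng and Adam12. A further gene of that rule is not reported here.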

Additional observations from a re-analysis of the deposited data

Results flagged for a closer look

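In 40 groups of 4 libraries (normalised counts and family shares of the 10 genes, in GFP- and GFP+), 5 held 1 library far from the other 3 by Dixon's test, which marks about 1 in 20 groups by chance. Ltbp1 was at 4208 normalised counts in GFP- replicate 3, with the other GFP- libraries between 3135 and 3315.5. Ltbp3 was at 1249.5 normalised counts in GFP- replicate 1, with the others between 1423 and 1437. The share of Tgfb2 in the ligand reads was 50.8% in GFP- replicate 3, against 66.1% to 69.0% in the others. In GFP+ replicate 4, Tgfbr3 took 32.5% of the receptor reads, against 27.7% to 28.2%, and Ltbp2 took 2.29% of the latent binding protein reads, against 1.11% to 1.25%.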

How the results depend on the processing

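Tgfbr3, Ltbp3 and Ltbp4 were called higher in GFP+ in all alternatives except the fibroblast scaling, which was chosen after seeing the data. Leaving out single libraries moved their log2 fold changes over 0.73 to 1.00, 0.46 to 0.54 and 1.07 to 1.30. For the uncalled genes these ranges were -0.44 to 0.10 (Tgfb1), -0.13 to 0.18 (Tgfb2), -0.0581 to 0.23 (Tgfb3), -0.22 to 0.14 (Tgfbr1), 0.18 to 0.43 (Tgfbr2), 0.33 to 0.51 (Ltbp1) and -0.47 to 0.0222 (Ltbp2), so the direction of 5 of them was not settled. In limma voom Tgfb2 was at -0.0581 and Tgfbr1 at 0.02999. Leave-one-out totals were 969 to 1837 genes called, 460 to 937 higher (fewest without GFP+ replicate 3) and 469 to 900 lower (fewest without GFP- replicate 4). Of the 10 genes 3 to 4 were called, and of pathway genes 13 to 28, with 11 to 23 higher (fewest without GFP+ replicate 3) and 2 to 5 lower (most without GFP- replicate 3). edgeR called 732 genes, 405 higher and 327 lower, with 1 pathway gene lower. Smad3, uncalled, ran from -0.15 to 0.38, with -0.14 without GFP- replicate 1 and -0.15 without GFP+ replicate 4. Smad2 and Smad4, uncalled as well, ran from 0.18 to 0.48 and from 0.024 to 0.23.

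With the replicate block, 1492 genes were called, 3 of them among the 10 and 4 pathway genes lower, and Tgfb2 was at -0.0204. Same-numbered libraries did not deviate together (correlations 0.0503, -0.158, -0.122 and 0.262), so the numbers were not taken as pairs.

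Scaled to 5 fibroblast markers, 6159 genes were called (94 higher, 6065 lower), 6 of the 10 (6 lower) and 34 pathway genes (1 higher, 33 lower). Log2 fold changes were -1.10 for Tgfb1, -0.83 for Tgfb2, -0.71 for Tgfb3, -0.87 for Tgfbr1, -0.54 for Tgfbr2, -0.0420 for Tgfbr3, -0.45 for Ltbp1, -1.12 for Ltbp2, -0.34 for Ltbp3 and 0.29 for Ltbp4. They were -0.33 for Emilin1, -0.0227 for Htra1, -0.0112 for Cilp, -0.25 for Junb, -0.10 for Gadd45b, -0.50 for Smad2, -0.72 for Smad3, -0.73 for Smad4, -0.44 for Smad7 and -0.0102 for Adam12. This scaling sets those markers equal on average. Family shares moved by less than the spread between replicates in every alternative run. The depth of GFP- replicate 3 (55 reads of Tgfb1, 33 of Tgfb3 and of Ltbp2) limits the genes with few reads.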
